A study of Mus musculus with 15 samples.

Results

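The Notch receptors and their ligands were followed as 8 genes, taken by gene name from the 18073 rows of the authors' deposited expression table: the receptors Notch1, Notch2, Notch3 and Notch4, and the ligands Jag1, Jag2, Dll1 and Dll4. Each had 1 row, and all 8 had a value above 0 in every group. RNA was sequenced from the aortic valve leaflets, 3 per mouse, of 15 C57BL/6 mice aged 2 months. The first group (N1het_TercG2, 4 mice) was heterozygous for Notch1 and belonged to the second Terc-null generation, which has short telomeres; Terc is the RNA template of telomerase. The second (N1WT_TercG2, 3 mice) was Notch1 wild type with the same loss of Terc. The third (N1het_TercWT, 4 mice) was heterozygous for Notch1 with intact Terc and long telomeres, and the fourth (N1WT_TercWT, 4 mice) was wild type at both genes. The labels name neither the Notch1 mutation nor the cells that carry it, nor the sex of the mice. The series title concerns protection by long telomeres from the effects of Notch1 haploinsufficiency. The table holds 1 FPKM value per gene and group, that is, fragments scaled to transcript length and sequencing depth. The mice of a group had been combined before deposit, so the spread between mice and the read depth are unknown. No difference below could be tested, none carries an error, and neighbouring levels in any order cannot be said to differ beyond the spread between mice. In such bulk samples fewer cells of a type and less RNA per cell cannot be told apart.

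Notch receptors sit in the cell membrane and are activated by ligands of the Jagged and Delta-like families on a neighbouring cell. Binding leads to cleavage by ADAM proteases and gamma-secretase, and the freed intracellular part joins RBPJ in the nucleus and switches on genes of the Hes and Hey families. In the aortic valve Notch1 is needed for normal leaflet development, and loss of NOTCH1 function in people is linked to bicuspid and calcified aortic valves. Notch4 and Dll4 are typical of endothelium, Notch3 of vascular smooth muscle, and Notch1 is also needed for T cell development in the thymus.

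Terc (ENSMUSG00000064796) was listed at 0 in both groups without it, against 4.52 FPKM in heterozygous and 1.42 FPKM in wild type valves with long telomeres. All 16 endothelial markers and all 14 markers of valve interstitial cells and fibroblasts were above 0 in every group, among them Pecam1 and Dcn. Blood and heart muscle markers were present as well and differed between groups. The summed level of 12 thymocyte genes was 19.2 FPKM in heterozygous and 217 FPKM in wild type valves with short telomeres, and 1371 FPKM in heterozygous and 141 FPKM in wild type valves with long telomeres. The whole table also shifted. Mitochondrial genes held 8.83% of the summed FPKM in heterozygous and 7.63% in wild type valves with short telomeres. With long telomeres they held 2.89% and 3.10%. Genes listed at 0 numbered 1181 and 2010 in heterozygous and wild type valves with short telomeres, and 250 and 705 with long telomeres. Taken over all genes, the median log2 fold of short over long telomeres was -0.23 in wild type valves and -0.24 in heterozygous valves. For both changes over neither it was -0.16, and for heterozygous over wild type it was 0.09 with long and 0.06 with short telomeres. Log2 folds below are differences of log2(FPKM + 1), which shrink the change of low genes. Those called relative have the median of all genes taken off.

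The promoter windows of 5 members are shown because these genes stand for the patterns described below: Notch1 is the gene altered by design, Dll4 was higher with short telomeres, and Notch4, Jag1 and Dll1 moved alike. The windows run from 250 bases before to 50 bases after the start of transcription, are taken from RefSeq for GRCm38.p6, and read 5′ to 3′ on the strand of the gene. Capitals mark matches on either strand to GGGCGG, the GC box bound by Sp and Klf factors.
Notch1 (chr2:26503773-26504072, minus strand): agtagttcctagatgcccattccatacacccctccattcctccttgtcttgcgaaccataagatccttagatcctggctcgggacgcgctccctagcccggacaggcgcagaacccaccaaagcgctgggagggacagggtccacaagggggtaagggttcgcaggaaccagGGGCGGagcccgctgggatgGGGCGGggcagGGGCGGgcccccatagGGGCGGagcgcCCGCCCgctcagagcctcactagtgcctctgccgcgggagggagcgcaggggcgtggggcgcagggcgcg
Dll4 (chr2:119325534-119325833, plus strand): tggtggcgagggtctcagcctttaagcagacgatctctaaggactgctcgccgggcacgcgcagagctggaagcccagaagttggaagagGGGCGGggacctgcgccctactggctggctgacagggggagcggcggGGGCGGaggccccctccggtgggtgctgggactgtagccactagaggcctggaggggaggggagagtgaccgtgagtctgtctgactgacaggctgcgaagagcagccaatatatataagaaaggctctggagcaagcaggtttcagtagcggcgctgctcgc
Notch4 (chr17:34564045-34564344, plus strand): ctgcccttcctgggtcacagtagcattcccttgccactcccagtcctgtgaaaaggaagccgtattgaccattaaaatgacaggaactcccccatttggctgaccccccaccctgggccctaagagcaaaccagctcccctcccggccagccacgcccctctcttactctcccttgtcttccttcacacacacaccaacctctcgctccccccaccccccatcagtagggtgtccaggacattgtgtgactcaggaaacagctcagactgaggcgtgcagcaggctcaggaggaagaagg
Jag1 (chr2:137116471-137116770, minus strand): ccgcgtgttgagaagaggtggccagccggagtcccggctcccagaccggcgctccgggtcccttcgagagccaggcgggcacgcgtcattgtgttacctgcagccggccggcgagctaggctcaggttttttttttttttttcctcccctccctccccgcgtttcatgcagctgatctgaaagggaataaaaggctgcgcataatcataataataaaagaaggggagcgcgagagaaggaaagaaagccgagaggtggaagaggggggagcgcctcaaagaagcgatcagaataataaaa
Dll1 (chr17:15376883-15377182, minus strand): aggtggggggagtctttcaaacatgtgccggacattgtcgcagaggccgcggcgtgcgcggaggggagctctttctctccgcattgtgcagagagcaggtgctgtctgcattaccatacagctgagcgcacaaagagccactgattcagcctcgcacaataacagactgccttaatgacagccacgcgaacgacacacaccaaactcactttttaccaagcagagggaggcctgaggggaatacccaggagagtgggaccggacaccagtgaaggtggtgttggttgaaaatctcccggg
All 8 members matched the table of promoters, with 9 windows, since Dll1 has 2 starts. The motifs searched on both strands were TGGGAA, the core of the RBPJ motif, the E box CACGTG, and GGGCGG. The RBPJ core and CACGTG had 0 matches in the 9 windows, while 25.6% and 7.15% of all 32851 windows held them. GGGCGG had 5 matches in the Notch1 window and 2 in that of Dll4, as well as 7 in Notch2, 4 in Notch3 and 5, of which some overlap, in Jag2. It had 0 matches in the windows of Notch4, Jag1 and Dll1, and 35.7% of all windows held it. A match is a string of letters and says nothing about binding.

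Notch1 (ENSMUSG00000026923, chromosome 2), the receptor altered in these mice, stood at 23.3 FPKM in heterozygous and 16.6 FPKM in wild type valves with short telomeres, and at 25.1 FPKM in heterozygous and 39.1 FPKM in wild type valves with long telomeres. The 2 heterozygous groups were close to each other, and the 2 wild type groups were the highest and the lowest of the 4. Notch1 therefore had the lower level in heterozygous valves with long telomeres only. Its place among all genes of a group, which no scaling moves, was the 83.2nd and 76.5th percentile in heterozygous and wild type valves with short telomeres, and the 82.6th and 90.6th with long telomeres.

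Notch2 (ENSMUSG00000027878, chromosome 3), a widely expressed receptor, followed the Notch1 genotype more closely than Notch1 did. It stood at 14.5 FPKM in heterozygous and 34.6 FPKM in wild type valves with short telomeres, and at 21.6 FPKM in heterozygous and 43.0 FPKM in wild type valves with long telomeres. As deposited, both heterozygous groups lay below both wild type groups, though not when set against endothelial genes. The 11 platelet markers separated the genotypes in the same way, with sums of 413 FPKM in heterozygous and 2110 FPKM in wild type valves with short telomeres, and 130 FPKM in heterozygous and 3249 FPKM in wild type valves with long telomeres, with 0 genes at 0. All 11 were lower in heterozygous valves in both settings, and the authors' deposited table called 8 of them with short and 11 with long telomeres. Sums of the erythroid, mesothelial and smooth muscle markers were also lower in both heterozygous groups than in both wild type groups. The part of any of these cell types in the Notch2 level was not tested. Notch3 (ENSMUSG00000038146, chromosome 17) followed the telomere setting instead, with 2.76 FPKM in heterozygous and 3.56 FPKM in wild type valves with short telomeres, against 6.20 FPKM in heterozygous and 6.03 FPKM in wild type valves with long telomeres. Its range over the 4 groups, 2.25-fold, was the narrowest among the 8 genes. Notch4 (ENSMUSG00000015468, chromosome 17) had the widest, 4.24-fold. It was at 9.19 FPKM in heterozygous and 2.64 FPKM in wild type valves with short telomeres, and at 2.16 FPKM in heterozygous and 4.75 FPKM in wild type valves with long telomeres. The group with both changes was the highest for Notch4, and the groups with a single change were the lowest.

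Jag1 (ENSMUSG00000027276, chromosome 2), the Jagged ligand of arterial endothelium and smooth muscle, was the most abundant ligand in 3 of the 4 groups. It stood at 16.1 FPKM in heterozygous and 5.41 FPKM in wild type valves with short telomeres, and at 8.81 FPKM in heterozygous and 12.4 FPKM in wild type valves with long telomeres. Dll1 (ENSMUSG00000014773, chromosome 17), a Delta-like ligand, was at 8.12 FPKM in heterozygous and 2.12 FPKM in wild type valves with short telomeres, and at 2.85 FPKM in heterozygous and 7.97 FPKM in wild type valves with long telomeres. As deposited, for Jag1 and Dll1, as for Notch4, both groups with a single change lay below the group with both changes and the group with neither.

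Dll4 (ENSMUSG00000027314, chromosome 2), the ligand that restrains sprouting in endothelium, separated the telomere settings. It stood at 6.39 FPKM in heterozygous and 7.58 FPKM in wild type valves with short telomeres, against 1.96 FPKM in heterozygous and 2.34 FPKM in wild type valves with long telomeres. Jag2 (ENSMUSG00000002799, chromosome 12), the second Jagged ligand, separated them too, with 4.85 FPKM in heterozygous and 3.77 FPKM in wild type valves with short telomeres. With long telomeres Jag2 was at 2.49 FPKM in heterozygous and 1.68 FPKM in wild type valves. Both short-telomere groups were above both long-telomere groups for these ligands as deposited, though not for Jag2 in heterozygous valves when scaled to endothelial genes, and with long telomeres both stood under 3 FPKM.

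**Figure D1:**
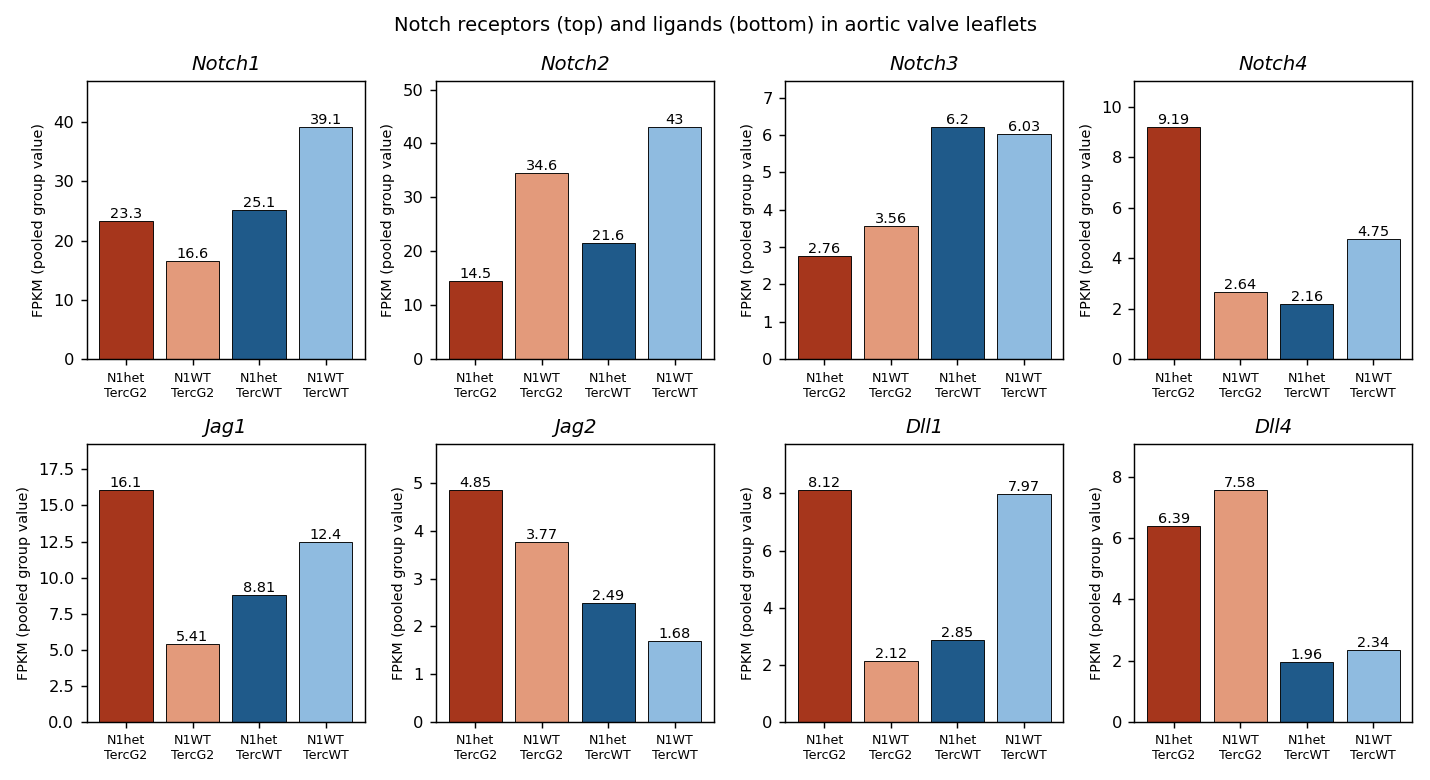
FPKM (vertical axis, 1 pooled value per group, no error available) of the 4 receptors and 4 ligands in valves of the 4 genotypes (horizontal axis; N1, Notch1; het, heterozygous; G2, second Terc-null generation). Notch4, Jag1 and Dll1 are highest in N1het_TercG2 valves as deposited (for Jag1 and Dll1 not when scaled to endothelial genes or without mitochondrial genes), and Dll4 and Jag2 are higher in both TercG2 groups (for Jag2 in heterozygous valves not when scaled to endothelial genes).

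With long telomeres, 6 of the 8 genes were lower in heterozygous than in wild type valves, where 43.6% of all genes were lower. A log2 fold of -1 or less was seen for 1 of 8, Dll1, and for 7.53% of all genes. A fold of at least 1 was seen for 0 of 8, and for 10.9% of all genes. Dll1 stood at 2.85 FPKM in heterozygous and 7.97 FPKM in wild type valves, a log2 fold of -1.22. Notch2 (-0.96), Notch4 (-0.86), Notch1 (-0.62) and Jag1 (-0.45) followed it in size of log2 fold. Notch1 was thus at 0.642 times the wild type level, and 15.6% of all genes had a log2 fold as low. Scaled to the endothelial list, the log2 fold was -0.21 for Notch1 and -0.071 for Jag1. Dll4 was lower by little, with a log2 fold of -0.17 that turned to 0.13 when the groups were scaled to the endothelial list. Jag2 was higher (0.38, with 55.9% of all genes higher), and the Notch3 fold of 0.03 turned to -0.058 once the median of all genes was taken off. Endothelial markers were lower in 13 of 16, with a median log2 fold of -0.31, and smooth muscle markers in 14 of 14, with a median of -2.16. Their part in these differences was not tested.

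With short telomeres, 5 of the 8 genes were higher in heterozygous than in wild type valves, beside 53.5% of all genes. Of the 8, 3 had a log2 fold of at least 1, beside 12.5% of all genes: the ligands Dll1 (1.55) and Jag1 (1.41) and the receptor Notch4 (1.48). Dll1 was 3.82-fold, Notch4 3.48-fold and Jag1 2.97-fold as high in heterozygous as in wild type valves. Notch1 itself was 1.41-fold as high in heterozygous valves, a log2 fold of 0.47. The Notch2 log2 fold was -1.20, the only 1 of 8 at -1 or less, where 10.8% of all genes were; 3 of 8 and 42.6% of all genes were lower. Notch3 (-0.28) and Dll4 (-0.22) were the other lower genes, and Jag2 was at 0.30. Endothelial markers were higher in 14 of 16, with a median log2 fold of 0.22. Macrophage markers were higher in 8 of 9 (median relative log2 fold 1.09). The part of either cell type was not tested.

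In Notch1 wild type valves, 6 of the 8 genes were lower with short than with long telomeres, beside 61.1% of all genes. A log2 fold of -1 or less was seen for 3 of 8 and for 20.9% of all genes: Dll1 at -1.52, Notch1 at -1.19 and Jag1 at -1.07. Relative to the median of all genes these were -1.29, -0.96 and -0.84. Notch1 stood at 16.6 FPKM with short and 39.1 FPKM with long telomeres, without a change in its own genotype. The ligands Dll4 and Jag2 were higher. Dll4 was 3.24-fold as high with short telomeres (7.58 FPKM against 2.34 FPKM), the only 1 of 8 with a log2 fold of at least 1, beside 8.9% of all genes. Jag2 was 2.24-fold as high (3.77 FPKM against 1.68 FPKM), a log2 fold of 0.83, and 36.6% of all genes were higher. Relative log2 folds were -0.43 for Notch4, -0.39 for Notch3 and -0.08 for Notch2. All 14 smooth muscle markers were lower, with a median log2 fold of -1.26 and 8 at -1 or less. Endothelial markers were higher in 11 of 16 (median log2 fold 0.29), and all 10 neutrophil markers were higher (median relative log2 fold 4.23). The part of these cell types was not tested.

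In Notch1 heterozygous valves, 5 of the 8 genes were higher with short than with long telomeres, including all 4 ligands, beside 34.3% of all genes. A log2 fold of at least 1 was seen for 3 of 8 and for 4.71% of all genes: Notch4 (1.69), Dll4 (1.32) and Dll1 (1.24). Notch4 stood at 9.19 FPKM with short and 2.16 FPKM with long telomeres, and 1.48% of all genes had a log2 fold as high. Jag1 (0.80) and Jag2 (0.75) had smaller log2 folds, which turned to -0.16 and -0.059 when groups were scaled to the endothelial list. All 16 endothelial markers were higher, with a median log2 fold of 1.01. The other 3 genes, all receptors, were lower, beside 64.9% of all genes, and 0 of 8 had a log2 fold of -1 or less, beside 16.8% of all genes. Notch3 was at -0.94 and Notch2 at -0.54. Notch1, at 23.3 FPKM with short and 25.1 FPKM with long telomeres, had a log2 fold of -0.10 and a relative one of 0.14. All 12 thymocyte markers were lower with short telomeres (median -5.50), and their part in the receptor levels was not tested.

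Set against valves with neither change, valves with both changes had lower Notch1, Notch2 and Notch3 and higher levels of the other 5 genes, 2 of which changed direction with the scaling. The Notch2 level was 0.338 times that of valves with neither change, a relative log2 fold of -1.35 and the only log2 fold among the 8 at -1 or less, beside 17.2% of all genes; 3 of 8 and 58.2% of all genes were lower. Notch3 was at -0.90 and Notch1 at -0.72. Dll4 (2.74-fold) and Jag2 (2.88-fold) were the 2 of 8 with a log2 fold of at least 1, beside 7.48% of all genes, and 40.1% of all genes were higher at all. Notch4 was at 0.82. Jag1 (0.35) and Dll1 (0.02) were higher as deposited, but at -0.0060 and -0.31 when mitochondrial genes were left out of the total, and at -0.23 and -0.52 when scaled to the endothelial list. Among the markers, 13 of 14 smooth muscle genes (median relative log2 fold -1.35, 3 called in the authors' deposited table) and 11 of 11 platelet genes (median -3.40, 8 called) were lower, and 13 of 16 endothelial genes were higher (median 0.84). Their part in these differences was not tested. This comparison and those above share groups, so that their values are not independent of each other.

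**Figure D2:**
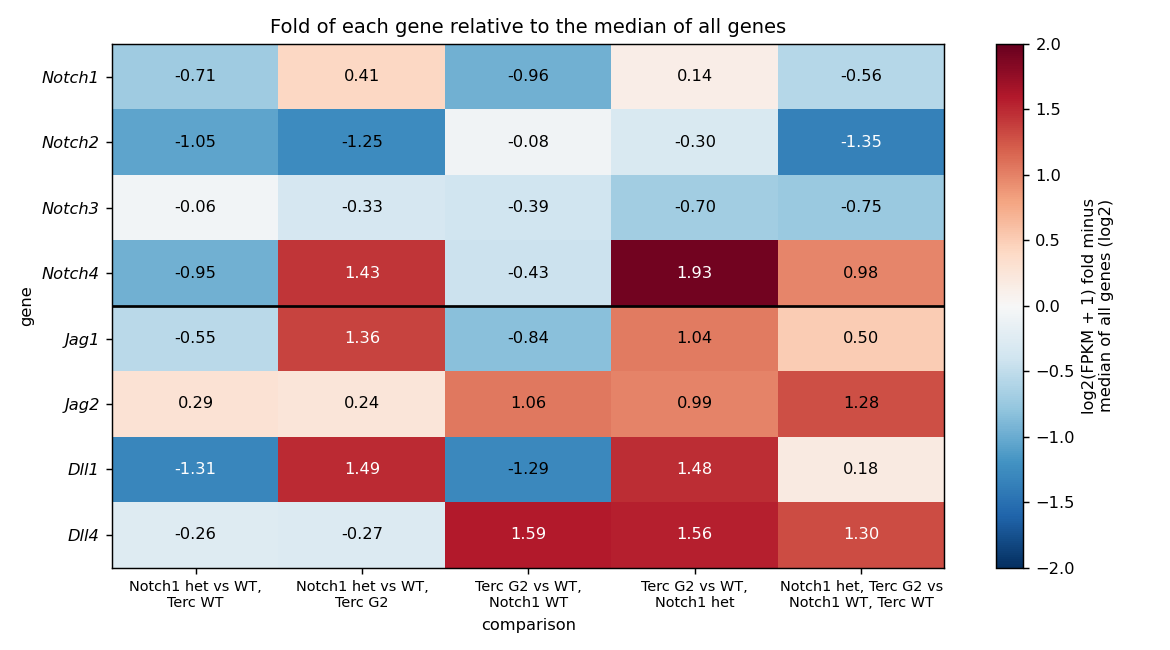
Log2(FPKM + 1) fold of each gene (rows) in 5 comparisons (columns), minus the median log2 fold of all 18073 genes; red is higher and blue lower in the group named first. The Dll1 row runs between -1.31 and 1.49, and the Dll4 row is at 1.59 and 1.56 in the comparisons of Terc G2 with Terc WT.

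None of the 8 genes was marked as different by the authors. By the authors' deposited table, 0 of 8 were called in each of the 5 comparisons, where 0.415% of all genes were called for the Notch1 genotypes with long telomeres, 0.476% with short telomeres, 0.686% and 0.432% for short against long telomeres in wild type and heterozygous valves, and 0.526% for both changes against neither. The smallest ratio among called genes was 4.67-fold, 4.30-fold, 4.54-fold, 4.79-fold and 4.25-fold in the same order. The largest ratio among the 8 genes was below it each time: 2.80-fold, 3.82-fold and 3.75-fold for Dll1, 4.24-fold for Notch4 and 2.96-fold for Notch2.

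The Notch1 genotype went with opposite signs in the 2 telomere settings for 5 of the 8 genes, while 44.2% of all genes had opposite signs. For Dll1 the log2 fold of heterozygous over wild type was 1.55 with short and -1.22 with long telomeres, a difference of 2.77. For Notch4 it was 1.48 with short and -0.86 with long telomeres, a difference of 2.34, and for Jag1 1.41 and -0.45, a difference of 1.87. A difference of either sign as large as that of Notch4 was found for 7.02% of all genes, and one as large as that of Dll1 for fewer. For Notch1 the difference was 1.09, and 30.5% of all genes had one as large; scaled to the endothelial list it was 0.42. For Notch3 it was -0.31. Notch2 (-1.20 with short and -0.96 with long telomeres), Jag2 (0.30 and 0.38) and Dll4 (-0.22 and -0.17) had nearly the same log2 fold in both settings as deposited. Scaled to the endothelial list, the difference was larger for these genes, at -0.88 for Notch2, -0.64 for Jag2 and -0.56 for Dll4. That scaling shifts all genes. Under it the median log2 fold of all genes, heterozygous over wild type, was -0.04 with short and 0.43 with long telomeres. With 1 value per group these differences could not be tested.

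**Figure D3:**
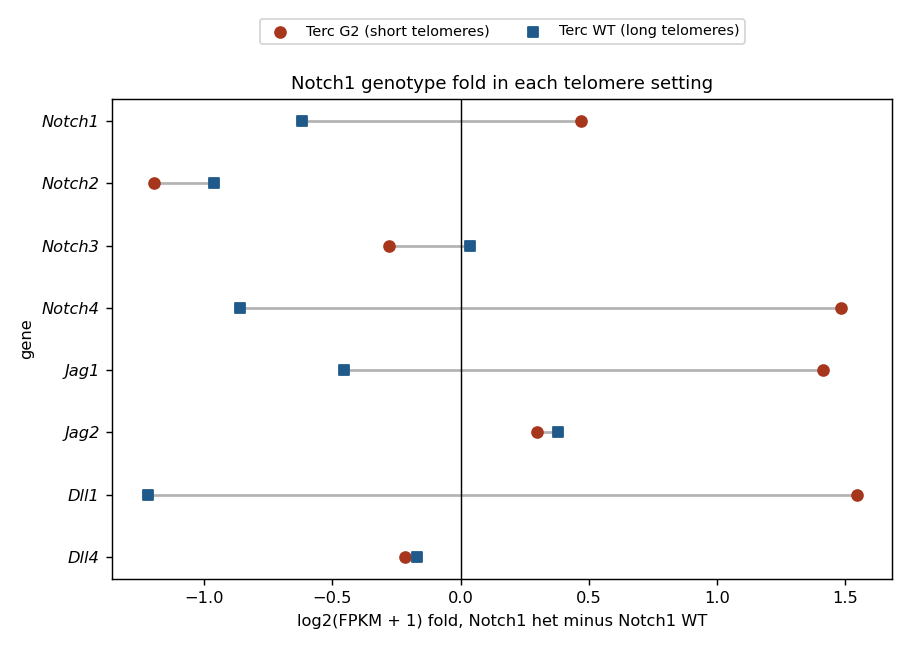
Log2(FPKM + 1) fold of Notch1 heterozygous over wild type valves (horizontal axis) for each gene, with short telomeres (red circles) and long telomeres (blue squares). The circles of Dll1, Notch4, Jag1 and Notch1 lie right of 0 and their squares left of it, and the symbols of Notch2, Jag2 and Dll4 lie close together.

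Shares within a group do not depend on any scaling. Notch1 and Notch2 together made up 76.0% of the summed receptor FPKM in heterozygous and 89.2% in wild type valves with short telomeres, and 84.8% in heterozygous and 88.4% in wild type valves with long telomeres. The ratio of Notch1 to Notch2 was 1.61 in heterozygous and 0.480 in wild type valves with short telomeres, and 1.16 in heterozygous and 0.911 in wild type valves with long telomeres. Notch1 was thus the leading receptor in both heterozygous groups, and Notch2 in both wild type groups. Notch4 took 18.4% of the receptor sum in valves with both changes, 4.61% in wild type valves with short telomeres, and 3.93% and 5.11% in heterozygous and wild type valves with long telomeres.

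Among the ligands Jag1 led in 3 groups, with 45.4% of the summed ligand FPKM in heterozygous valves with short telomeres and 54.7% and 50.9% in heterozygous and wild type valves with long telomeres. In wild type valves with short telomeres Dll4 led, with 40.1% against 28.6% for Jag1. Dll4 and Jag2 together held 31.7% of the ligand sum in heterozygous and 60.1% in wild type valves with short telomeres, against 27.6% in heterozygous and 16.5% in wild type valves with long telomeres. The summed receptors stood at 49.8 FPKM and the ligands at 35.4 FPKM in valves with both changes, a ratio of 1.41. That ratio was 3.04 in wild type valves with short telomeres, and 3.42 and 3.80 in heterozygous and wild type valves with long telomeres.

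**Figure D4:**
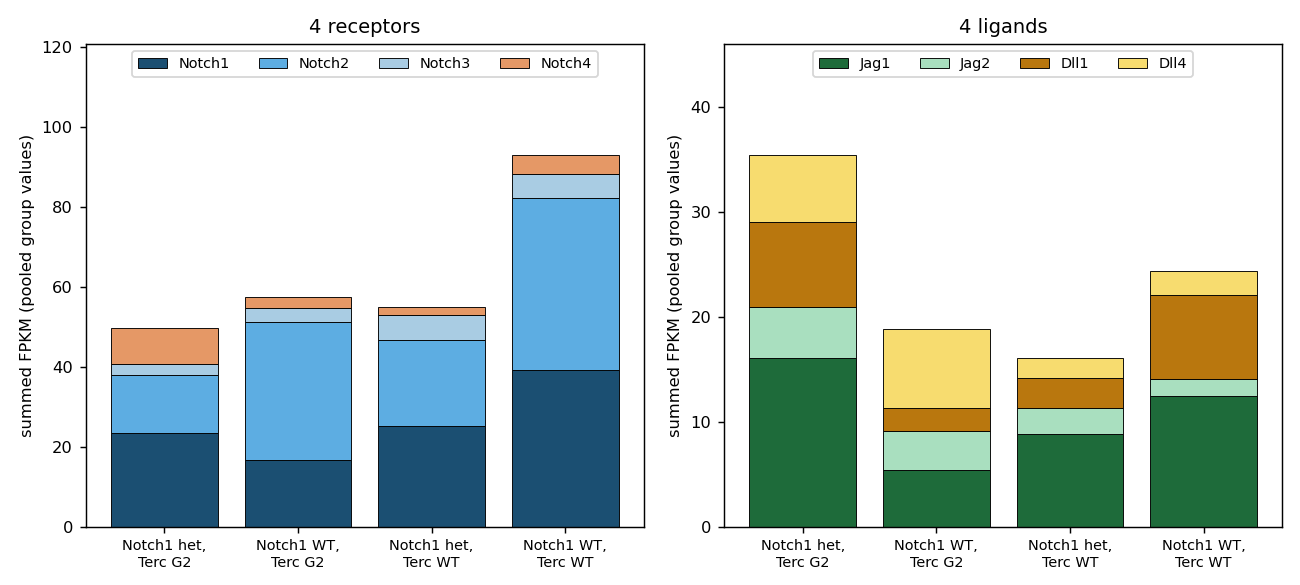
Summed FPKM (vertical axis) of the 4 receptors (left) and the 4 ligands (right) in each group (horizontal axis), stacked by gene, with 1 pooled value per group. The receptor sum is lowest, at 49.8 FPKM, and the ligand sum highest, at 35.4 FPKM, in valves with both changes.

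Endothelium is among the cells that can carry Notch1, Notch4, Jag1 and Dll4. The levels were therefore also set against the mean log2(FPKM + 1) of 16 endothelial genes of the same group. That mean was 5.52 in heterozygous and 5.25 in wild type valves with short telomeres, and 4.48 in heterozygous and 4.90 in wild type valves with long telomeres. On this scale Notch1 was at -0.91 and -1.11 in heterozygous and wild type valves with short telomeres, against 0.23 and 0.43 with long telomeres. Both short-telomere groups were then below both long-telomere groups. Most genes shifted the same way. With groups scaled to the endothelial list, the all-gene median log2 fold of short over long telomeres was -1.04 in heterozygous valves. In wild type valves it was -0.48. The Notch1 log2 folds under that scaling were -1.10 in heterozygous and -1.52 in wild type valves. Notch3 was at -3.61 and -3.06 in heterozygous and wild type valves with short telomeres, against -1.63 and -2.08 with long telomeres. For Dll4 the values were -2.63 and -2.15 with short telomeres, against -2.91 and -3.16 with long telomeres, still higher with short telomeres but by less than as deposited. Notch4 and Dll1 were lowest, at -3.38 and -3.60, in wild type valves with short telomeres. Notch2 was at -1.56 and -0.10 in heterozygous and wild type valves with short telomeres, against 0.02 and 0.56 with long telomeres. Heterozygous valves with long telomeres were thus above wild type valves with short telomeres for Notch2. The endothelial genes are markers and not a measured cell number, and which cells carried the receptors and ligands was not measured.

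**Figure D5:**
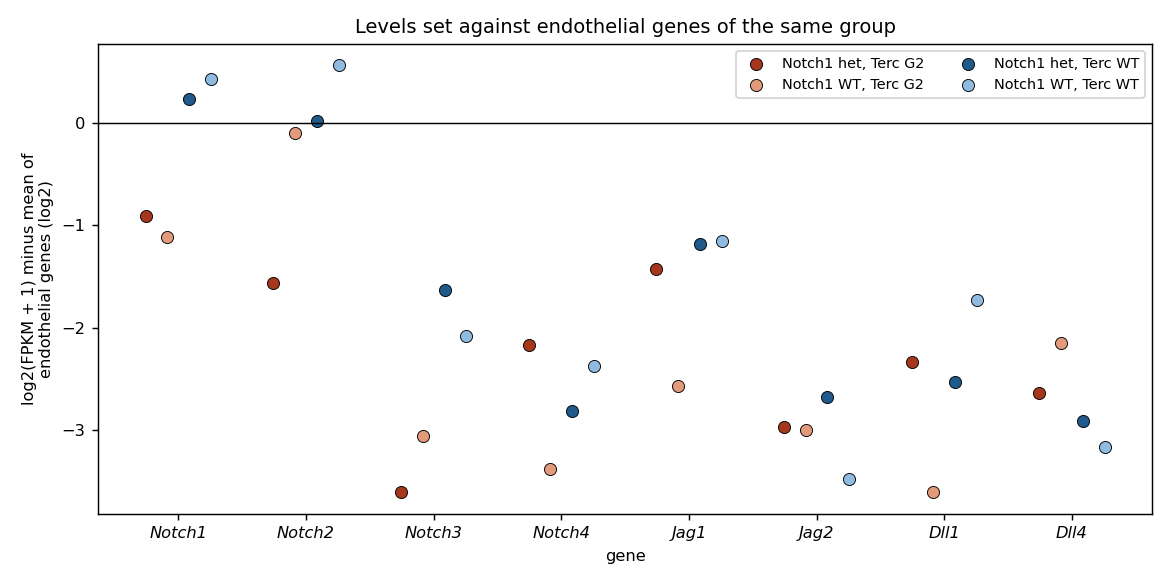
Level of each gene as log2(FPKM + 1) minus the mean of 16 endothelial genes of the same group (vertical axis, log2), for the 8 genes (horizontal axis) and the 4 groups (colours). Notch1 is below 0 in both Terc G2 groups and above 0 in both Terc WT groups. With groups scaled to the endothelial list, the median log2 fold of all genes, Terc G2 over Terc WT, was also below 0 in both Notch1 genotypes.

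The patterns of the 8 genes were compared as the Euclidean distance between their 4 log2(FPKM + 1) values, each centred on its own mean. Of the 28 pairs, Jag1 and Dll1 were the closest (0.55), followed by Notch4 and Dll1 (0.70), Notch4 and Jag1 (0.71), Notch1 and Notch3 (0.71) and Jag2 and Dll4 (0.77). Notch3 and Dll4 were the farthest apart (2.13). Among 8824 other genes with a mean of at least 5 FPKM and without a clone or predicted name, those nearest to Notch1 were Ccdc44 (0.02), Vamp5 (0.05) and Znfx1 (0.05). Nearest to Notch2 were Ccdc80 (0.08), Irak4 (0.13) and Fbln1 (0.16), of which Ccdc80 and Fbln1 encode matrix proteins. Nearest to Notch3 were Srcap (0.04), Hexdc (0.06) and Smc1a (0.07).

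Nearest to Notch4 were Sdcbp2 (0.17), Cd248 (0.26) and S100a16 (0.27), and Cd248 encodes a glycoprotein of pericytes and fibroblasts. Nearest to Jag1 were Smagp (0.03), Fam129b (0.04) and Oas1a (0.08), and nearest to Jag2 were Nek7 (0.05), Sgms1 (0.06) and Zfp68 (0.10). Dll1 had Nthl1 (0.13), Chad (0.27) and Sox13 (0.28) as its nearest genes. Chad, which encodes the cartilage matrix protein chondroadherin, stood at 167 and 59.6 FPKM in heterozygous and wild type valves with short telomeres, and at 57.2 and 159 FPKM with long telomeres. Nearest to Dll4 were C1s (0.16), Vit (0.17) and B4galt4 (0.18). With 4 values per gene many genes lie close to any pattern.

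Other genes of the pathway were read from 4 lists of 42 symbols in all, of which 37 rows were in the table, Maml2 with 2. By the authors' deposited table, 0 of the 37 were called in each comparison. With long telomeres 24 of 37 were lower in heterozygous valves, with a median log2 fold of -0.31 beside 0.09 for all genes. With short telomeres 21 of 37 were higher in heterozygous valves, with a median of 0.02 beside 0.06. The glycosyltransferases Rfng and Lfng, which add sugars to Notch receptors and so set their response to ligands, were at 7.13 and 6.39 FPKM in heterozygous valves with short telomeres, against 1.13 and 0.483 FPKM in wild type valves with short telomeres. The other member of that family, Mfng, differed the other way, with 7.34 FPKM in heterozygous and 15.2 FPKM in wild type valves with short telomeres, a log2 fold of -0.96. In wild type valves with short against long telomeres 26 of 37 were lower (median -0.47 beside -0.23). There, Maml3, a coactivator bound by the Notch and RBPJ complex, stood at 1.61 FPKM with short and 8.74 FPKM with long telomeres.

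In heterozygous valves 22 of 37 were lower with short telomeres (median -0.20 beside -0.24), and 22 of 37 were lower with both changes than with neither (median -0.13 beside -0.16). Nrarp, a target that feeds back on Notch, stood at 7.74 and 1.06 FPKM in heterozygous and wild type valves with short telomeres, and at 1.95 and 3.09 FPKM with long telomeres. Its order over the 4 groups was that of Jag1 and Dll1. Hey2, a target in endothelium and heart, was at 20.8 and 4.04 FPKM in heterozygous and wild type valves with short telomeres, and at 15.7 and 18.1 FPKM with long telomeres. Heyl followed the order of Notch2, with 8.06 and 26.5 FPKM in heterozygous and wild type valves with short telomeres, and 13.9 and 28.2 FPKM with long telomeres. Hes1 was at 32.5 and 32.3 FPKM in heterozygous and wild type valves with short telomeres, and at 20.8 and 34.0 FPKM with long telomeres. For Hey1 the values were 18.6 and 19.8 FPKM with short telomeres, and 13.3 and 23.0 FPKM with long telomeres. Of 11 target and feedback genes, 5 were higher and 6 lower in heterozygous valves with short telomeres, beside 53.5% and 42.6% of all genes. With long telomeres 2 were higher and 9 lower, beside 55.9% and 43.6% of all genes. The 9 genes of the proteases that cleave the receptors had medians between 0.02 and 0.10 in the 5 comparisons, and Rbpj stood between 23.9 and 30.4 FPKM in all 4 groups.

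Notch3 is a receptor of smooth muscle, and the smooth muscle list differed more than Notch3 did. The 14 genes, led by Acta2, summed to 598 FPKM in heterozygous and 747 FPKM in wild type valves with short telomeres, and to 348 FPKM in heterozygous and 1495 FPKM in wild type valves with long telomeres, with 0 genes at 0. Notch3 stood at 6.20 FPKM in heterozygous and 6.03 FPKM in wild type valves with long telomeres, where that list was farthest apart. The 12 thymocyte genes were highest, at 1371 FPKM, in heterozygous valves with long telomeres, where Notch1 was at 25.1 FPKM, and lowest, at 19.2 FPKM with Ptcra listed at 0, in heterozygous valves with short telomeres, where Notch1 was at 23.3 FPKM. The part of either cell type in the receptor levels was not tested.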

How the data were processed

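Leaflets were treated with collagenase, and amplified cDNA, made with a kit that does not keep the strand, was sequenced as paired reads, per the labels' protocols. The submitters' processing notes name FastQC, TopHat, SAMtools, Picard and mm9, with no role or version. The authors deposited FPKM values, 1 per gene and group, and 5 columns of calls (0 or 1), per the file headers. The test behind the calls, the annotation and the depth are not stated in these sources. Where 2 call columns share a header, each was assigned to the pair of groups in which every called gene passed the same ratio, at least 4.25-fold over all columns; in other pairs the smallest ratio was at most 1.17-fold.

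Values per library were not used here, so the planned model across all genes was replaced by a description. A log2 fold is the difference of log2(FPKM + 1) between groups. The members and lists were chosen with earlier results of these data known. Named genes were the 8 members, the 3 genes nearest to each in pattern, and some pathway genes. The pathway genes were chosen from the 3 per list and comparison with the largest log2 fold that reach 5 FPKM. Rbpj and Hes1 were added after their values were seen. Chromosomes come from GENCODE for GRCm38, and coordinates are given only for RefSeq windows. Software was Python 3.11.15 with numpy 2.4.6, pandas 2.3.3 and, for figures, matplotlib 3.10.9. The fold formula and the assignment of call columns were run on data simulated by the same rules, which checks the code only. The pattern distances were not checked in this way.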

Additional observations from a re-analysis of the deposited data

Results flagged for a closer look

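The log2 fold of Notch1 heterozygous over wild type valves had opposite signs with short and long telomeres for 5 of the 8 genes, beside 44.2% of all genes. The difference, short minus long telomeres, was 2.77 for Dll1, 2.34 for Notch4, 1.87 for Jag1, 1.09 for Notch1 and -0.31 for Notch3. Each rests on 1 pooled value per group, and none of these differences was tested. The Notch1 difference was 0.42 when groups were scaled to the endothelial list. The Notch3 log2 fold with long telomeres was only 0.03, and its sign turned under median scaling.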

How the results depend on the processing

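No paired analysis was possible because the table holds 1 value per group, and for the same reason no mouse could be left out. Of the 40 member folds, 33 kept their direction under all alternatives run (pseudocount 0.1 or none, scaling to a common median, to the endothelial list or without mitochondrial genes, and, chosen after seeing the data, percentile ranks and scaling without mitochondrial and blood cell genes). The pseudocount settings could not reverse a fold, since no pseudocount changes which group is higher. For the folds that did turn under other settings the cause was not tested.

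With long telomeres the Notch3 log2 fold between genotypes was -0.059 under median scaling and -1.96 percentile points by rank, so that 1 member was higher in both, and that of Dll4 was 0.13 under endothelial scaling. In heterozygous valves with short against long telomeres, the Notch1 log2 fold of -0.10 was 0.28 under median scaling and 0.61 percentile points by rank, but -0.50 without mitochondrial genes, -0.49 without blood cell genes as well and -1.10 under endothelial scaling. Under endothelial scaling Jag1 was at -0.16 and Jag2 at -0.059, which left 3 members higher and 5 lower. The pathway genes lower in that comparison numbered 12 under median scaling, 36 under endothelial scaling and 13 by rank, against 22 as deposited. The whole table moved likewise. For all genes the median log2 fold there was 0.011 under median scaling and -1.04 under endothelial scaling, against -0.24 as deposited. By rank it was 0.75 percentile points. For both changes against neither, Jag1 and Dll1 were at -0.0060 and -0.31 without mitochondrial genes, at -0.027 and -0.33 without blood cell genes as well, and at -0.23 and -0.52 under endothelial scaling, with 3 members higher and 5 lower each time. The difference between telomere settings, near 0 for Jag2 and Dll4, was 0.029 and 0.038 under median scaling and 0.64 and 1.14 percentile points by rank, and for Dll4 it was 0.0036 with no pseudocount. Endothelial scaling moved this difference further, to -0.64 for Jag2, -0.56 for Dll4, -0.88 for Notch2, -0.86 for Notch3 and 0.42 for Notch1. It shifts all genes, whose median log2 fold of heterozygous over wild type was then -0.04 with short and 0.43 with long telomeres. A filter at a mean of 1 FPKM left 15044 genes. Every member and every listed pathway gene passed it, so it could not change their counts. The read depth is unknown, and with it the counting error of each value.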

Other observations

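The library kit does not keep the strand, so reads of genes that overlap on opposite strands cannot be told apart. In GENCODE for GRCm38, exons of Notch1 overlap Gm13568 and 0610009E02Rik, both on the other strand. Gm13568 stood at 66.1 and 97.9 FPKM in heterozygous and wild type valves with short telomeres, and at 42.7 and 52.6 FPKM with long telomeres, above Notch1 in every group. 0610009E02Rik stood at 7.35 and 1.75 FPKM in heterozygous and wild type valves with short telomeres, and at 2.83 and 5.47 FPKM with long telomeres, the same order of the 4 groups as for Jag1 and Dll1. Exons of Dll1, Dll4, Notch2 and Notch3 also overlap an annotated gene, while those of Notch4, Jag1 and Jag2 do not.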
